A study of Mus musculus with 18 samples.

Results

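The livers labelled HPNWT were compared between day 2 and day 1, with 3 arrays at each day and 6 of the 18 arrays of the series in all. Every transcript cluster with a gene symbol was included, which came to 40161 of 65956 clusters. A transcript cluster is the set of array probes that reads 1 gene or transcript. The 6 arrays labelled EGFP at the same days were used to show how far livers with the control vector drifted between the days. They also entered the common estimate of the spread behind the p-values. The 18 animals were adult male mice that the labels call healthy, and the liver RNA of each went on its own Affymetrix MTA 1.0 array, which reads coding and noncoding transcripts. The series' title and design text concern liver regeneration, the epidermal growth factor receptor (EGFR) and liver-directed overexpression of hepsin by adeno-associated virus (AAV). All animals, the EGFP controls included, were transduced with AAV. The other 6 arrays, HPNWT and EGFP livers at day 4, entered only the common estimate of the spread. The labels do not spell out HPNWT, and the event from which the days were counted, the strain, the vector dose and the promoter are not given in the sources used here. Different animals were read at each day, so a difference between days is a difference between groups of animals.

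Hepsin, encoded by Hpn, is a serine protease anchored in the hepatocyte membrane. Hepatocytes of the adult liver are mostly quiescent, and when they re-enter the cell cycle they first induce immediate early genes, then load the MCM helicase on replication origins, and then copy their DNA and divide. E2F transcription factors drive the genes of DNA replication, and the sterol-sensing factor SREBP2 drives those of cholesterol synthesis and uptake.

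Within the HPNWT group of each day the arrays correlated with each other at 0.991 to 0.995 (day 1) and 0.996 to 0.997 (day 2) over all clusters, and the lowest value involved replicates 1 and 3 of day 1. The median of the 5222 negative-control probe sets was 3.03 ± 0.11 at day 1 and 3.04 ± 0.05 at day 2 on the log2 scale (SD, n = 3), against 3.20 ± 0.10 and 3.41 ± 0.14 in the EGFP livers. The 95th percentile of these control sets averaged 6.16 and is called the control level below. Of the symbol clusters, 9049 lay above it on average, and a gene below it on both days is given as a difference of signal without a fold. The defining markers of hepatocytes were bright: all 19 hepatocyte markers were above the control level, and Alb read 12.47, 12.79 and 12.84 at day 1 and 12.83, 12.85 and 12.92 at day 2. Levels are log2 signals on the authors' robust multi-array average (RMA) scale, and differences are day 2 minus day 1 on that scale.

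Hpn was not higher in the livers labelled HPNWT. It read 8.47, 8.10 and 8.20 in the livers labelled HPNWT at day 1 and 8.21, 8.19 and 8.16 at day 2, against 8.25, 8.29 and 8.41 and then 8.24, 8.32 and 8.25 in the livers labelled EGFP. The HPNWT arrays of both days overlapped, with a difference of −0.07 (SE 0.12, limma adjusted p = 0.93). Those of day 1 also overlapped the EGFP arrays, while the 3 of day 2 lay below all 6 of them. The labels are therefore taken as given, without a higher Hpn signal behind them, and whether the array's probes read the vector's transcript was not tested.

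Between day 1 and day 2 the livers labelled HPNWT changed in 7 clusters by limma, a linear model with a moderated estimate of the spread, at a Benjamini-Hochberg adjusted p under 0.05. Of the 40161 clusters, 3 rose, which is 0.00747%, and 4 fell, which is 0.00996%. The 3 rises were Mcm6, Akr1c18 and Capn3. The 4 falls were Csad, Irf5 and the predicted microRNA precursors Gm23374 and Gm25032. At an unadjusted p under 0.05 there were 2850 clusters, 2.59% of all clusters with a higher and 4.51% with a lower signal at day 2, and the counts at unadjusted p given for the gene lists below are to be read against these shares. In the EGFP livers limma called 0 clusters (0%) over the same days, with 2226 at an unadjusted p under 0.05. The count of 7 depended on single animals: it was 1, Mcm6, without HPNWT day 1 replicate 1, without either replicate 1 or replicate 2 of HPNWT day 2, or without EGFP day 1 replicate 2, and 50 without HPNWT day 1 replicate 3. It was 60 without HPNWT day 4 replicate 3, an array that lay far from the others on the second principal component and was left out after the data had been seen.

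Mcm6, a subunit of the replicative helicase, was the most clearly changed gene. It read 4.31, 4.19 and 4.07 at day 1 and 5.50, 5.18 and 5.88 at day 2 in the HPNWT livers, and between 4.07 and 4.16 in all 6 EGFP livers. All 3 HPNWT arrays of day 2 lay above every other array of these days. Its signal rose by 1.33 (SE 0.13, limma adjusted p = 7.55e-04), against 0.01 (SE 0.13) in the EGFP livers. All of its levels were below the control level, so the difference is one of signal and no fold is given. The call was kept in each leave-one-out fit and was lost in a fit of the 6 HPNWT arrays alone (limma adjusted p = 0.091).

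Akr1c18, a hydroxysteroid dehydrogenase that inactivates progesterone, read 7.52, 8.08 and 6.62 at day 1 and 8.87, 8.83 and 9.26 at day 2. In the EGFP livers it stayed between 3.76 and 4.06, so that the HPNWT livers were already higher at day 1 and higher again at day 2, with no overlap between the days. It rose by 1.58 (SE 0.24), a 3.0-fold difference (limma adjusted p = 0.037). The 3 day 1 arrays were spread more widely (SD 0.74) than the 3 of day 2 (SD 0.24), and replicate 3 was the lowest. Leaving out single arrays gave differences from 1.19 to 1.92. The other 8 genes of its Akr1c family that were measured had differences between −0.17, for Akr1c13, and 0.14, for Akr1c21. Members of this family are close in sequence, and how the array's probes divide them was not tested.

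Capn3, a calcium-dependent protease best known from muscle, read 4.05, 4.11 and 4.0 at day 1 and 4.62, 4.55 and 4.43 at day 2, below the control level throughout. Its signal rose by 0.48 (SE 0.07, limma adjusted p = 0.033), while the difference in the EGFP livers was −0.15 (SE 0.07). The day 2 HPNWT arrays lay above all 9 other arrays of these days.

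Csad, cysteine sulfinic acid decarboxylase, an enzyme of taurine synthesis, had the lowest difference of all 40161 clusters. It read 8.06, 7.87 and 7.51 at day 1 and 5.46, 5.55 and 5.68 at day 2 in the HPNWT livers. It fell by 2.25 (SE 0.33, limma adjusted p = 0.028), and since the day 2 arrays were under the control level the fold is given as at least 3.14-fold lower, with day 2 set to that level. The EGFP livers read 8.73, 8.97 and 9.47 and then 8.05, 8.59 and 8.20, a difference of −0.78 (SE 0.33), with no overlap between the days either. The difference between these 2 changes was −1.48 (SE 0.46) and did not pass (limma adjusted p = 0.85).

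Irf5, an interferon regulatory factor of myeloid cells, read 6.30, 6.24 and 6.37 at day 1 and 5.81, 5.87 and 5.93 at day 2. Its signal fell by 0.44 (SE 0.06, limma adjusted p = 0.027), towards the EGFP livers, which lay between 5.59 and 5.73 on both days. The other macrophage genes are given further down. The 2 predicted microRNA precursors had a like order of groups: Gm23374 read 9.36, 9.36 and 9.33 at day 1 and 8.39, 8.60 and 8.46 at day 2, and fell by 0.86 (SE 0.12, limma adjusted p = 0.027), a 1.82-fold difference. Its EGFP arrays ranged from 8.22 to 8.56. Gm25032 fell by 0.72 (SE 0.11, limma adjusted p = 0.028), from 4.84 ± 0.06 to 4.11 ± 0.15 (SD, n = 3), below the control level.

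**Figure D1:**
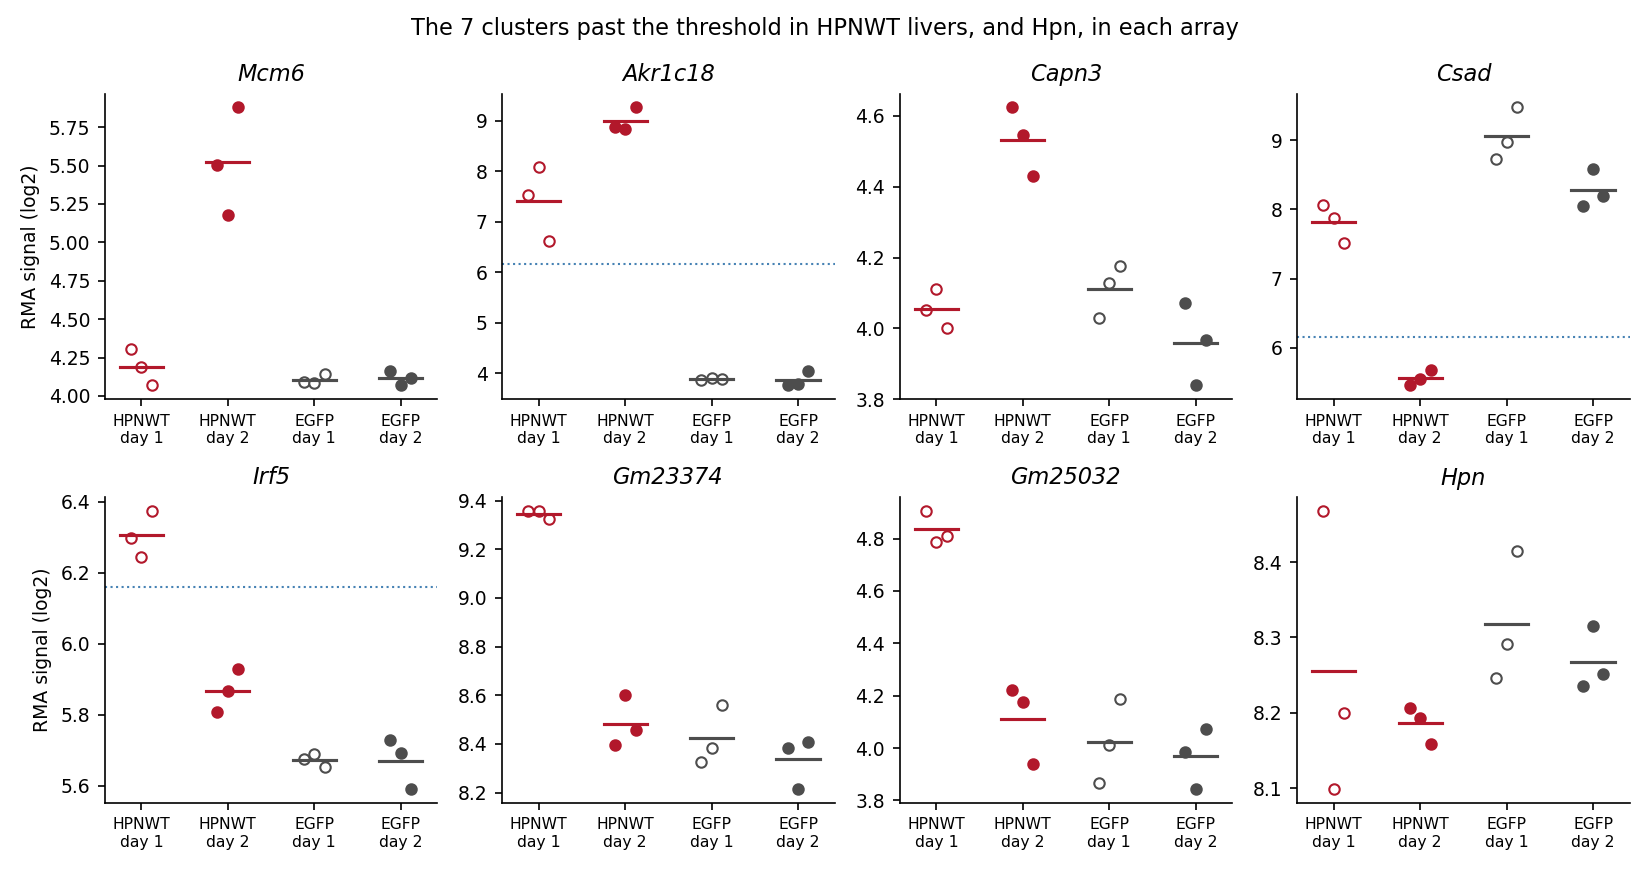
RMA signal (log2, vertical axis, scaled to each panel) of the 7 called clusters and of Hpn in each array, by label and day. Points are arrays, open at day 1 and filled at day 2, bars are means of 3 arrays, and the dotted line is the control level of 6.16 where it falls within the panel. In the 7 called clusters the 3 HPNWT arrays of day 2 do not overlap those of day 1, and those of Hpn overlap.

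Mcm6 was the only called member among 56 measured genes of DNA replication and S phase. The helicase genes Mcm2 to Mcm5 had differences of the same sign. Between the days, 21 of the 56 genes had HPNWT arrays of day 2 all above those of day 1, and 1 had them all below. Over all clusters 5.29% did not overlap in the upward direction and 6.77% in the downward direction, and the counts of arrays that do not overlap given for the lists below are to be read against these shares. In the EGFP livers 0 of the 56 did not overlap upward and 9 did so downward, with 6.24% and 9.91% over all clusters. The median difference of the list was 0.08 in the HPNWT livers and −0.04 in the EGFP livers, against 0.00 and −0.03 over all clusters. At an unadjusted p under 0.05, 16 of the 56 were higher and 1 was lower. Only 5 of the 56 genes were above the control level, so these are differences among dim signals.

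The MCM2 to MCM6 genes encode subunits of the ring that unwinds DNA at the origin. No cluster stood for Mcm7 alone, so that subunit of the ring is not given. Mcm4 read 4.62, 4.45 and 4.38 at day 1 and 5.33, 4.96 and 5.34 at day 2, a difference of 0.73 (SE 0.13, limma adjusted p = 0.087). Mcm5 had a difference of 0.57 (SE 0.16), Mcm3 of 0.52 (SE 0.16) and Mcm2 of 0.43 (SE 0.13), and none of these passed. In each of these genes the day 2 HPNWT arrays did not overlap those of day 1, and their EGFP differences lay between −0.08 and 0.04.

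Among other replication genes, Pole, the catalytic subunit of the leading-strand polymerase, read 3.62, 3.58 and 3.56 and then 3.92, 3.93 and 4.07, a difference of 0.39 (SE 0.07, limma adjusted p = 0.078). Tk1, a thymidine kinase of S phase, had a difference of 0.39 (SE 0.13), and Lig1, which joins Okazaki fragments, one of 0.23 (SE 0.06), neither past the threshold. Several genes that are commonly used as S phase markers gave small differences that did not pass: 0.09 (SE 0.07) for Pcna, the sliding clamp, and −0.05 (SE 0.18) for Rrm2, a ribonucleotide reductase subunit. Mcm6 thus stood apart in size from the rest of the list, whose other members ranged from −0.23, for Pold2, to 0.73.

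**Figure D2:**
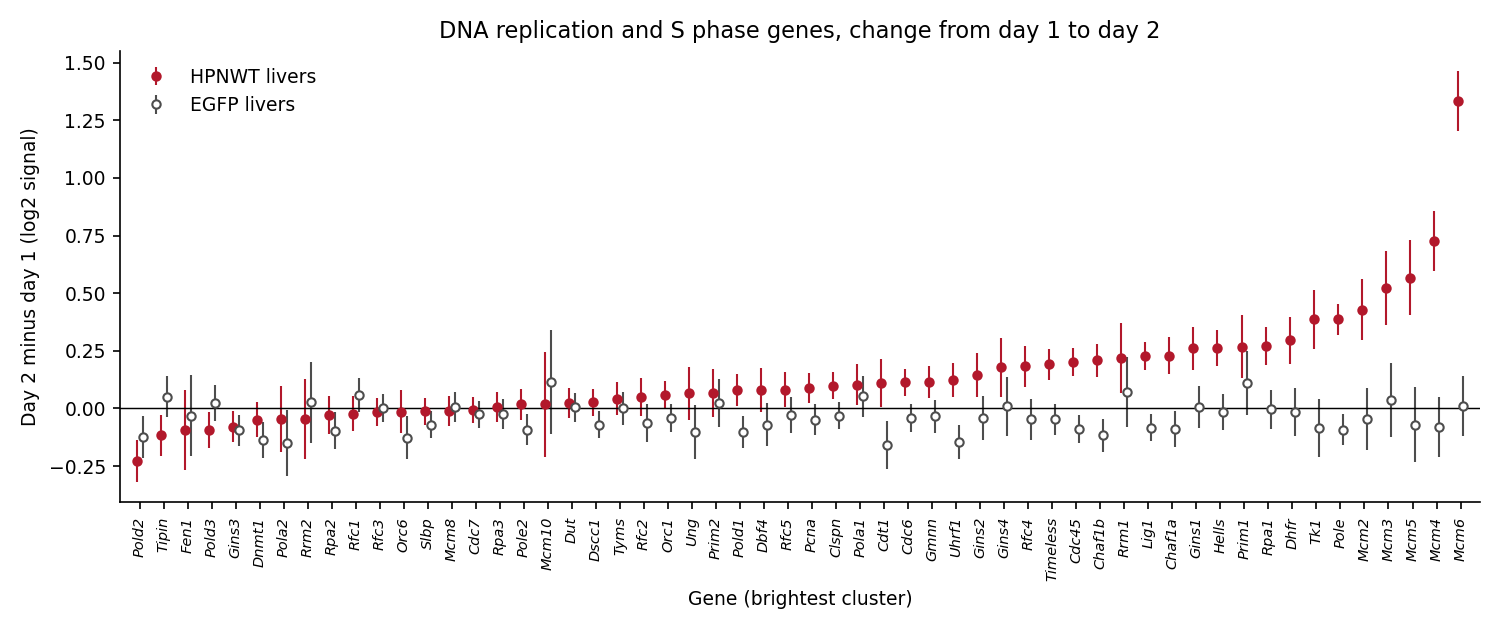
Difference between day 2 and day 1 (log2 signal, vertical axis) of the 56 measured genes of DNA replication and S phase, in order of the HPNWT difference, with standard errors from limma. Red points are HPNWT livers and open points EGFP livers. Mcm6 lies at 1.33, followed by Mcm4 at 0.73, Mcm5 at 0.57 and Mcm3 at 0.52, while the EGFP points of these genes stay near 0.

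The promoters of the MCM genes are shown because these genes had differences of the same sign and E2F sites are a textbook feature of replication genes. Promoter windows from RefSeq (build GRCm38.p6, 250 bases before to 50 after the start of the gene) were searched on both strands for the E2F letters TTTGGCGC, TTTGCCGC, TTTCGCGC and TTTCCCGC. A match was found in 704 of 27025 genes with a window (2.6%) and in 18 of the 45 S phase genes with one. Windows were at hand for Mcm2, Mcm3, Mcm5 and Mcm6, and 3 of these 4 held a match. The matches, in capitals, are printed with 30 bases on either side where the window allows; the capitals in Mcm5 and the first capitals in Mcm6 are a pair of matches on opposite strands that overlap.
Mcm6, chr1:128359715-128359845, minus strand: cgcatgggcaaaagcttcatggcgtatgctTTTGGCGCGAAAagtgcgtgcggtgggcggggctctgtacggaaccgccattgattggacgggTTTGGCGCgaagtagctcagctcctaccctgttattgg
Mcm5, chr8:75109326-75109397, plus strand: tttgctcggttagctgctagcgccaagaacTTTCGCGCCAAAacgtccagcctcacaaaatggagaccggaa
Mcm3, chr1:20820263-20820323, minus strand: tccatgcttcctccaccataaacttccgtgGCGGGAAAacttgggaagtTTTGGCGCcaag
Mcm6 held 3 matches, and Mcm5 and Mcm3 held 2 each. Mcm2 held none in its window, although its difference was close to that of Mcm3. A match shows only that these letters are present.

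The genes of G2/M and mitosis were dimmer still. Of 59 measured, 52 had a difference above 0, and 21 did not overlap upward between the HPNWT days, against 2 downward. Only 1, Bub3, was above the control level, and it went the other way, with a difference of −0.42 and no overlap. The list's median was 0.09 in the HPNWT livers and −0.04 in the EGFP livers. Of 4 lists of genes that liver hardly expresses, none of whose members were above the control level, 3 also had HPNWT medians above 0 and EGFP medians below 0: 0.06 and −0.06 for 15 fat and muscle markers, 0.05 and −0.07 for 9 platelet markers and 0.04 and −0.08 for 15 pancreatic acinar markers. The fourth, 16 T and NK cell markers, had medians of −0.01 and −0.06. The DNA replication and S phase list, also mostly dim, had medians of the same signs. The part of such dim-signal shifts in the mitotic list and in the S phase list was not tested.

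None of the mitotic genes was called by limma, and at an unadjusted p under 0.05 there were 3 higher and 1 lower. Without HPNWT day 4 replicate 3 there were 14 higher, when the share over all clusters was 4.1%. Mki67, the proliferation antigen, read 3.02, 2.80 and 2.87 and then 3.24, 3.20 and 3.48, a difference of 0.41 (SE 0.25, limma adjusted p = 0.77). The differences were 0.19 (SE 0.11) for Ccna2, cyclin A2, 0.10 (SE 0.15) for Ccnb1, cyclin B1, and 0.10 (SE 0.10) for Cdk1, the mitotic kinase. The 3 members with the smallest p were Bub3, a spindle checkpoint protein (−0.42, SE 0.10), the kinetochore gene Spc25 (0.26, SE 0.08) and the centrosomal kinase Nek2 (0.21, SE 0.09). Of 22 G1 cyclins, CDKs and CDK inhibitors, 0 were called by limma, 1 was higher and 1 lower (5 without replicate 3 of HPNWT day 1) at an unadjusted p under 0.05, and E2f1, an activating E2F factor, differed by 0.20 (SE 0.07, limma adjusted p = 0.61).

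Upstream of the cell cycle, the immediate early genes did not move as a group: of 30, 17 differences were below 0 and 13 above, with a median of −0.02, and none was called by limma, with 2 higher and 4 lower at an unadjusted p under 0.05. The 2 became 4 without replicate 3 of HPNWT day 2 or HPNWT day 4 replicate 3. Ier2 was closest to the threshold. It read 7.79, 7.77 and 7.48 at day 1 and 6.90, 6.81 and 6.91 at day 2, a difference of −0.80 (SE 0.14) or 1.75-fold (limma adjusted p = 0.058), and the EGFP livers lay between 6.20 and 6.63. Egr1 read 9.76, 9.48 and 9.68 and then 9.10, 8.63 and 8.86, a difference of −0.78 (SE 0.26, limma adjusted p = 0.54), and remained above the EGFP livers, whose highest array read 7.79. Atf3, a stress-induced factor, had the opposite sign, with 4.99, 4.91 and 4.96 at day 1 and 5.60, 5.79 and 5.33 at day 2, a difference of 0.62 (SE 0.16, limma adjusted p = 0.32).

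The receptors and ligands of the EGFR and HGF systems showed little. Of 29 genes, 4 did not overlap upward and 3 downward, against 5.29% and 6.77% over all clusters, the median was −0.04 in both labels, and none was called by limma, with 3 higher at an unadjusted p under 0.05, or 1 without replicate 3 of either HPNWT day. The members with the smallest p were Mst1r, a receptor tyrosine kinase of the MET family (0.35, SE 0.12), Hgfac, the protease that activates HGF (0.26, SE 0.10, 1.20-fold), and Nrg4, a ligand of ERBB4 (0.47, SE 0.22). Hgfac read 10.18, 10.03 and 9.85 and then 10.18, 10.36 and 10.30, with a limma adjusted p of 0.65. Of 19 ERK pathway feedback genes and targets none was called by limma either, 4 were lower at an unadjusted p under 0.05, or 1 without replicate 1 or 2 of HPNWT day 1 or replicate 1 of HPNWT day 2, and the 3 with the smallest p, Shc1, Spry4 and Dusp5, differed by −0.36 (SE 0.11), −0.50 (SE 0.21) and −0.46 (SE 0.19). The arrays of Spry4 and of Dusp5, both of which encode inhibitors of ERK signalling, overlapped between the days.

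Genes of cholesterol synthesis and uptake were the list with the lowest median. Of 28 measured genes 26 had differences below 0, and in 23 the 3 HPNWT arrays of day 2 lay below all 3 of day 1, against 4 genes in the EGFP livers and the downward background of 6.77% given above. The median difference was −0.60 in the HPNWT livers and −0.21 in the EGFP livers, and 26 genes were above the control level. No single gene passed the threshold in limma, and 21 were lower at an unadjusted p under 0.05, or 16 without replicate 1 of HPNWT day 1. Leaving out 1 HPNWT array at a time gave medians between −0.67 and −0.42, the latter without replicate 1 of day 1.

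Mvk, mevalonate kinase, read 8.47, 8.03 and 7.95 at day 1 and 7.08, 7.17 and 7.35 at day 2, a difference of −0.95 (SE 0.15), or 1.94-fold, with a limma adjusted p of 0.054. Lss, lanosterol synthase, read 9.03, 8.88 and 8.75 and then 7.65, 7.81 and 8.02, a difference of −1.06 (SE 0.20, limma adjusted p = 0.11). In both genes the arrays of the days did not overlap, and at both days the HPNWT mean was above the EGFP mean.

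Other members had differences of the same sign. Hmgcs1, a synthase early in the pathway, read 11.13, 11.16 and 11.30 and then 9.86, 10.02 and 10.49, a difference of −1.07 (SE 0.29, limma adjusted p = 0.37). Its EGFP livers spread from 8.74 to 10.14. Srebf2, which encodes SREBP2, differed by −0.48 (SE 0.13), against −0.21 in the EGFP livers.

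**Figure D3:**
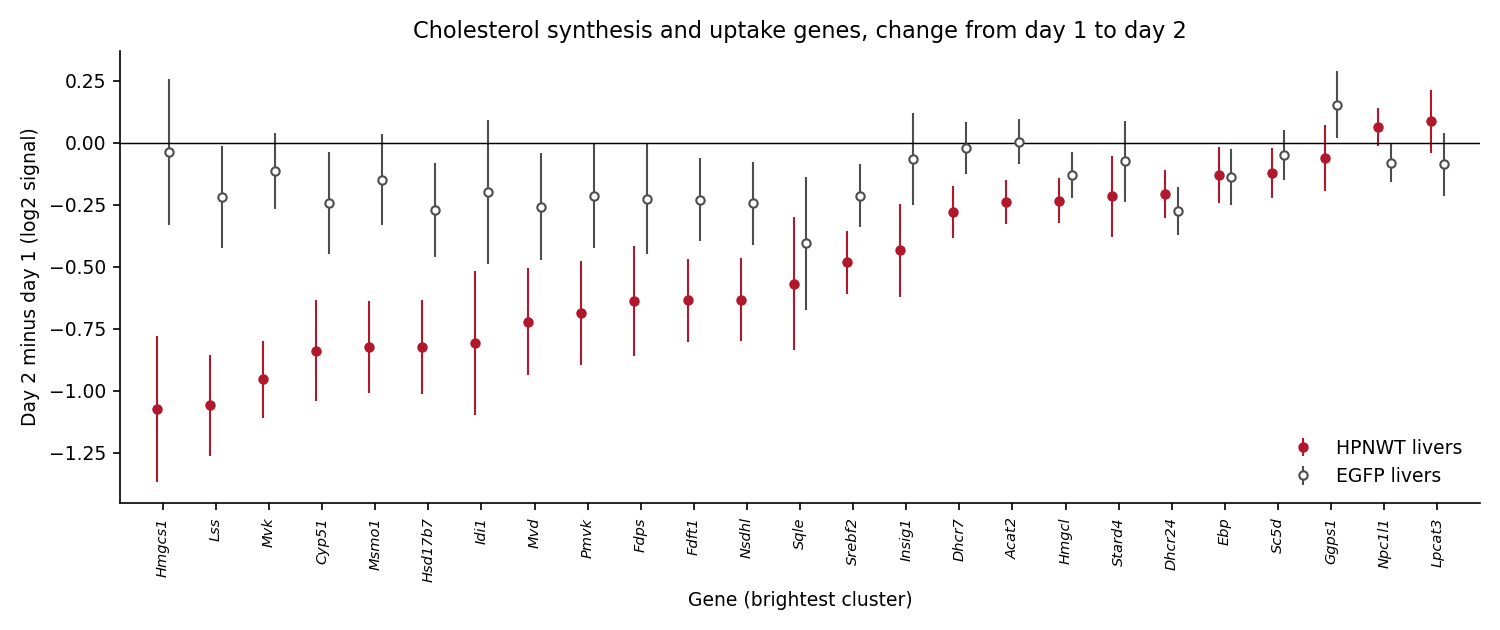
Difference between day 2 and day 1 (log2 signal, vertical axis) of 25 of the 28 measured genes of cholesterol synthesis and uptake, in order of the HPNWT difference, with standard errors from limma. Red points are HPNWT livers and open points EGFP livers. Most HPNWT points lie below the EGFP point of the same gene, from −1.07 for Hmgcs1 upward.

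Genes that build ribosomes had small differences, nearly all of them below 0. Of 56 genes of ribosome biogenesis and other Myc targets, 54 differences were below 0, with a median of −0.21 against 0.04 in the EGFP livers, and 23 did not overlap downward against 0 upward. Without replicate 1 of HPNWT day 1, the array with the highest median of this list, the median was −0.15. None was called by limma, and the number lower at an unadjusted p under 0.05 was 26, which became 11 without that replicate, when the share over all clusters was 1.99%, and 14 without replicate 1 of HPNWT day 2. Ltv1, needed to export the small subunit, read 7.33, 7.38 and 7.0 and then 6.68, 6.79 and 6.88, a difference of −0.46 (SE 0.09, limma adjusted p = 0.14). Polr1e, a subunit of RNA polymerase I, differed by −0.32 (SE 0.07) and Ddx18, a nucleolar helicase, by −0.33 (SE 0.08). The structural proteins of the cytosolic ribosome gave no such shift, with a median of −0.02 over 42 genes.

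The proteasome list was similar in shape. Of 32 subunits and assembly factors 31 differences were below 0 and 19 did not overlap downward, with a median of −0.19 in the HPNWT livers and 0.05 in the EGFP livers. Leaving out single HPNWT arrays gave medians of −0.23 to −0.15. At an unadjusted p under 0.05 limma had 19 lower, or 10 without replicate 1 of HPNWT day 1 and 11 without replicate 1 of HPNWT day 2, and called none. Psmc4, an ATPase of the 19S cap, read 8.64, 8.56 and 8.48 and then 8.10, 8.23 and 8.31, a difference of −0.35 (SE 0.08, 1.27-fold, limma adjusted p = 0.20). Psmc5, another of these ATPases, differed by −0.34 (SE 0.09), and Psma5, a subunit of the 20S core, by −0.30 (SE 0.08).

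Stress pathways of protein synthesis had small medians in the HPNWT livers. Of 34 genes of the unfolded protein response 22 differences were below 0 and 12 above, with a median of −0.05 against 0.09 in the EGFP livers. Of these genes 6 did not overlap downward and 1 upward. At an unadjusted p under 0.05 there were 3 lower and 0 higher, with at most 2 lower without single HPNWT arrays of day 1 or day 2. The 3 with the smallest p were the factor Xbp1 (−0.37, SE 0.13), the chaperone Hyou1 (−0.25, SE 0.11) and the translocon subunit Sec61a1 (−0.20, SE 0.09), none past the threshold. In the integrated stress response, Nupr1, a stress-induced chromatin protein, read 4.16, 4.28 and 3.99 at day 1 and 4.86, 5.30 and 4.65 at day 2, a difference of 0.79 (SE 0.13, limma adjusted p = 0.054). Atf4, the response's main factor, had the opposite sign, with 7.70, 7.49 and 7.38 and then 6.98, 6.96 and 6.80, a difference of −0.61 (SE 0.13, 1.53-fold, limma adjusted p = 0.15). Nars, an aminoacyl-tRNA synthetase, differed by −0.34 (SE 0.07).

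**Figure D4:**
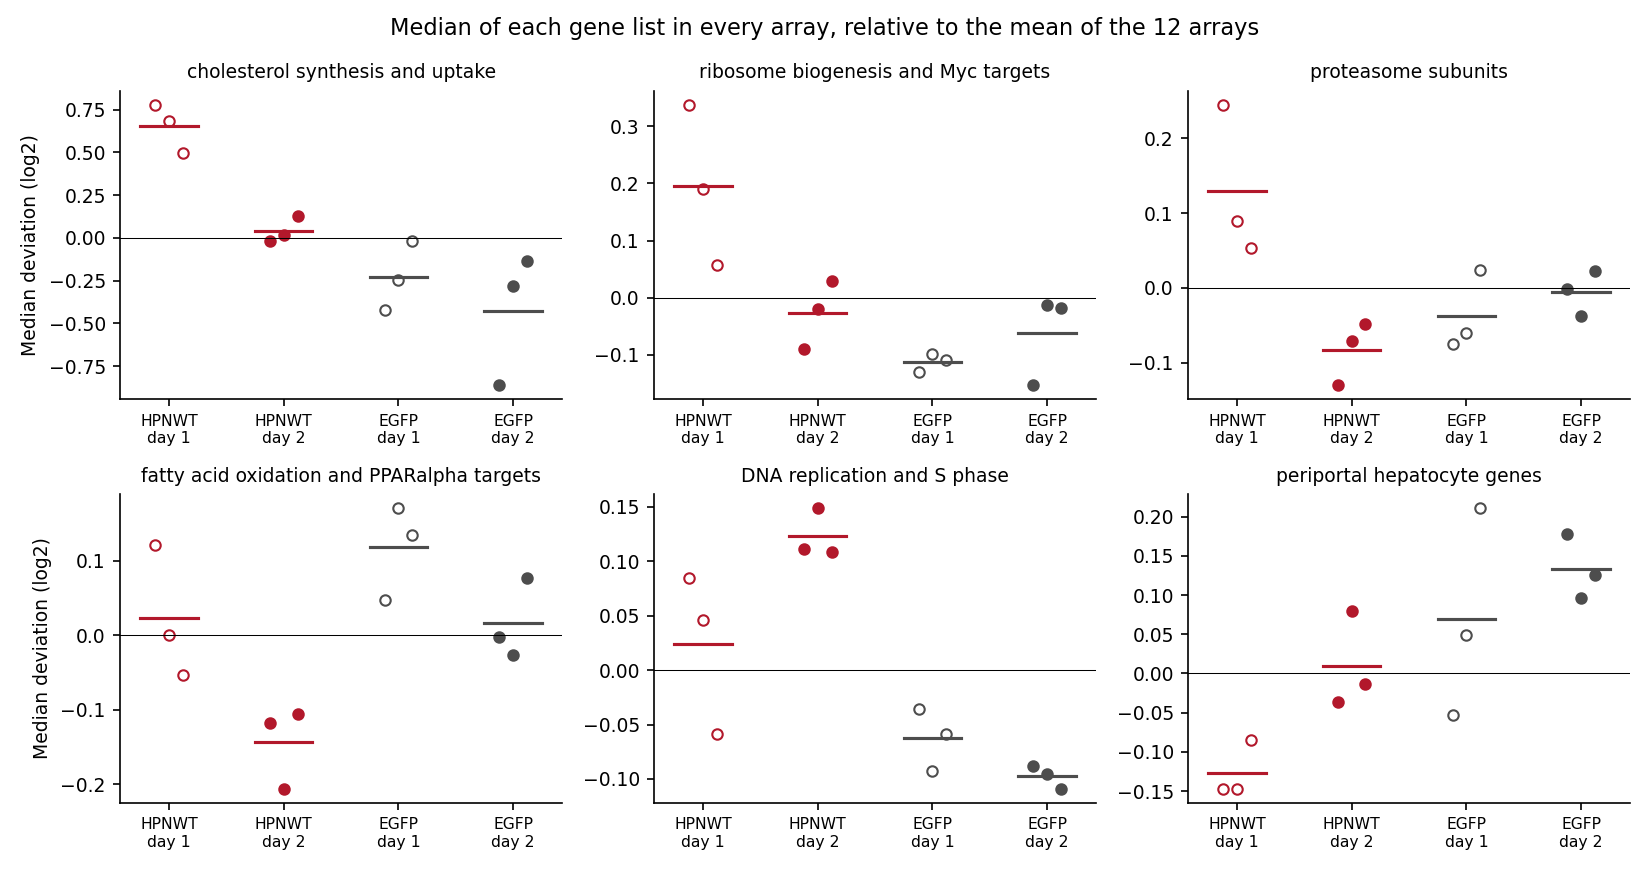
Median of 6 gene lists in every array (log2, vertical axis, scaled to each panel), each gene taken relative to its mean over the 12 arrays of day 1 and day 2. Points are arrays, open at day 1 and filled at day 2, and bars are means of 3 arrays. The HPNWT arrays of the cholesterol list run from 0.50 to 0.78 at day 1 and from −0.02 to 0.13 at day 2, and replicate 1 of day 1 is the highest HPNWT array of the ribosome biogenesis and proteasome lists.

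In lipid metabolism, fatty acid oxidation genes had a median of −0.19, against −0.09 in the EGFP livers, with 19 of 44 not overlapping downward and 1 upward. None was called by limma, with 13 lower at an unadjusted p under 0.05, or 7 without replicate 1 of HPNWT day 1, when the median was −0.12. Bdh1, which interconverts ketone bodies, read 9.14, 8.99 and 8.82 and then 8.46, 8.47 and 8.52, a difference of −0.50 (SE 0.12, 1.41-fold, limma adjusted p = 0.26). Cpt2, of the carnitine shuttle, differed by −0.48 (SE 0.12), and Acadl, the long-chain dehydrogenase, by −0.34 (SE 0.09). Cyp4a14, a PPARalpha target, had the lowest difference of the list, −2.03, while the EGFP livers differed by −0.92. Despite its size this difference did not pass, and its p was larger than those of Bdh1, Cpt2 and Acadl. Lipc, hepatic lipase, read 8.18, 8.02 and 8.16 and then 7.30, 7.23 and 7.56, a difference of −0.75 (SE 0.15, 1.69-fold, limma adjusted p = 0.14), and Plin2, a lipid droplet coat protein, differed by −0.72 (SE 0.22). Of 30 lipogenesis genes the median was −0.05, and 7 did not overlap upward and 4 downward. At an unadjusted p under 0.05 there were 2 higher and 3 lower. Thrsp, a lipogenic regulator, differed by 0.91 (SE 0.23, limma adjusted p = 0.32), and its day 1 arrays read 8.49, 8.49 and 7.70. Me1, of the same list, differed by −0.50 (SE 0.18), with arrays that overlapped between the days.

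Hepatocytes differ along the lobule, from the portal vein with its urea cycle and gluconeogenesis to the central vein with its drug metabolism. Of 24 periportal genes 17 differences were above 0, with a median of 0.20 against 0.01 in the EGFP livers, and 7 did not overlap upward against 3 downward. Of 22 pericentral genes 19 were below 0, with a median of −0.18 against −0.07, and 9 did not overlap downward against 0 upward. Limma called none in either list, and at an unadjusted p under 0.05 there were 6 higher and 2 lower periportal and 8 lower pericentral genes. The 6 became 2 without replicate 2 and 3 without replicate 3 of HPNWT day 2. Fbp1, a gluconeogenic phosphatase, differed by 0.27 (SE 0.08), and Aldh1b1, a mitochondrial aldehyde dehydrogenase, by 0.43 (SE 0.16). Pigr, the polymeric immunoglobulin receptor, differed by −0.21 (SE 0.07), with the HPNWT arrays of day 2 all below those of day 1.

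Among the pericentral genes, Cyp27a1, a sterol hydroxylase of bile acid synthesis, read 10.26, 9.90 and 10.10 and then 9.49, 9.48 and 9.36, a difference of −0.64 (SE 0.12, 1.56-fold, limma adjusted p = 0.093). Oat, ornithine aminotransferase, read 9.56, 8.70 and 9.34 and then 8.22, 8.21 and 8.35, a difference of −0.94 (SE 0.17, 1.92-fold, limma adjusted p = 0.10), while the EGFP livers lay between 9.78 and 10.36. Lgr5, a receptor that enhances Wnt signalling, differed by −0.72 (SE 0.17) in the HPNWT livers and by −0.76 in the EGFP livers. For Oat and Cyp27a1 the HPNWT arrays of day 2 were the lowest of the 4 groups.

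**Figure D5:**
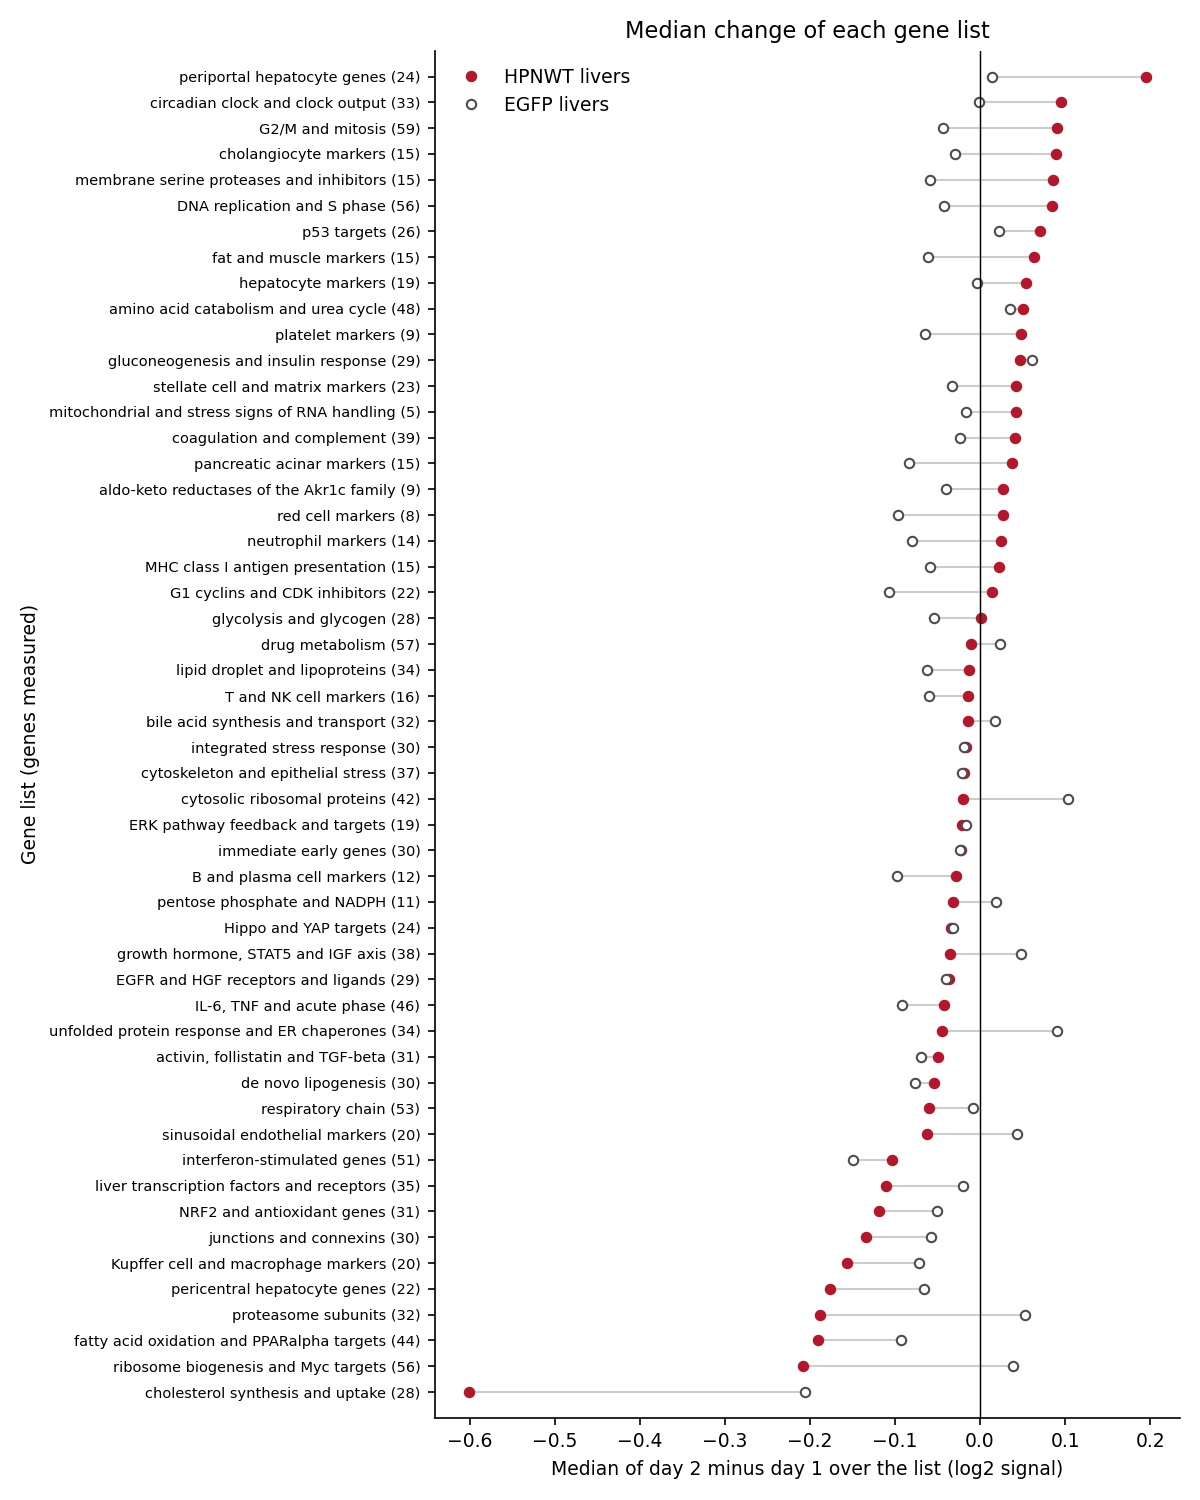
Median difference between day 2 and day 1 (log2 signal, horizontal axis) of each gene list, in order of the HPNWT median, with the number of genes measured in brackets. Red points are HPNWT livers, open points EGFP livers, and grey lines join both. The cholesterol list lies lowest at −0.60 and the periportal list highest at 0.20, and most lists lie between −0.1 and 0.1.

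Of 48 genes of amino acid catabolism and the urea cycle, 28 differences were above 0, 11 did not overlap upward and 3 downward, and Csad was the only called member. Mat1a, which makes S-adenosylmethionine in liver, read 11.17, 10.86 and 10.87 and then 11.15, 11.49 and 11.51, overlapping, with a difference of 0.42 (SE 0.11, limma adjusted p = 0.34). In the NRF2 list 21 of 31 differences were below 0, with a median of −0.12 (−0.06 without replicate 3 of HPNWT day 1 and −0.045 without replicate 2 of HPNWT day 2), and Aox1, aldehyde oxidase, read 8.37, 8.20 and 8.39 and then 7.35, 7.35 and 7.36, a difference of −0.97 (SE 0.19, 1.96-fold, limma adjusted p = 0.12). The EGFP arrays of Aox1 ranged from 8.27 to 8.94.

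The drug metabolism list had differences of both signs, with a median of −0.01 over 57 genes. Cyp2b9, a member of the CYP2B subfamily, read 6.54, 7.14 and 5.65 and then 7.52, 8.41 and 7.59. Its difference was 1.40 (SE 0.36, 2.65-fold, limma adjusted p = 0.32), and the EGFP arrays lay between 3.87 and 4.67. Without single arrays the difference of Cyp2b9 ran from 1.01 to 1.75, and replicate 3 was its lowest array of day 1. Cyp2b13 of the same subfamily differed by 0.73 (SE 0.17). These paralogs are close in sequence, so their signals may not be separate. Cyp1a2, a pericentral cytochrome, differed by −0.44 (SE 0.12).

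The secreted proteins of the liver gave mixed values. Of 39 coagulation and complement genes 26 differences were above 0, 10 did not overlap upward and 2 downward, and F10, coagulation factor X, read 9.44, 9.34 and 9.30 and then 9.71, 9.70 and 9.68, a difference of 0.34 (SE 0.07, 1.27-fold, limma adjusted p = 0.18). Of 46 genes of the acute phase, IL-6 and TNF, 27 differences were below 0 and 19 above. Their median was −0.04, against −0.09 in the EGFP livers. In the HPNWT livers 4 did not overlap downward and 0 upward, against 9 and 1 in the EGFP livers. The median was 0.03 without replicate 3 of HPNWT day 1 or without replicate 2 of HPNWT day 2. In this list Saa2, a serum amyloid A, read 10.84, 10.29 and 10.68 and then 9.87, 8.09 and 8.61. Its difference was −1.75 (SE 0.44, limma adjusted p = 0.32), and Saa1 differed by −1.48 (SE 0.39). The EGFP livers differed by −0.92 and −0.73 in these 2 genes, so that both labels had lower means at day 2. Lrg1, another acute phase gene, differed by −0.58 (SE 0.13) in the HPNWT livers and by −0.28 in the EGFP livers, without overlap between the days in either.

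Of 37 genes of cell shape and epithelial stress, 20 differences were below 0 and 17 above, with a median of −0.02 in both labels. They ran up to 0.37, and 12 did not overlap downward and 5 upward. At an unadjusted p under 0.05 there were 2 higher and 9 lower. The members with the smallest p all fell. Krt8, a keratin of simple epithelia, read 9.61, 9.36 and 9.44 and then 8.81, 8.60 and 8.87, a difference of −0.70 (SE 0.13, 1.63-fold, limma adjusted p = 0.11). At day 2, 2 of its 3 arrays lay within the range of the EGFP livers, 8.48 to 8.84. Tubb6 and Tuba4a, tubulin genes, differed by −0.67 (SE 0.14) and −0.47 (SE 0.11). None of these passed.

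Time of day at sampling is not given in the sources used here. The clock and its output genes had a median of 0.10 over 33 genes, but replicate 3 of HPNWT day 1 lay apart, at −0.48 relative to the mean of the 12 arrays, while the other 11 lay between −0.07 and 0.18. Medians without single HPNWT arrays ran from −0.05, without that replicate, to 0.23. The 3 members with the smallest p were Upp2, a uridine phosphorylase (0.57, SE 0.15), the vasopressin receptor gene Avpr1a (−0.73, SE 0.24) and the clock repressor Cry1 (−0.36, SE 0.14). Angptl8, an insulin-induced secreted protein, read 10.85, 10.66 and 9.26 at day 1, the lowest again in replicate 3, and 9.46, 10.64 and 10.04 at day 2.

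The markers of other liver cell types had small differences of both signs, none called by limma, and in bulk tissue fewer cells of a type and less RNA per cell cannot be told apart. Of 20 Kupffer cell and macrophage markers 15 were above the control level, 16 differences were below 0, and 7 did not overlap downward and 1 upward, with a median of −0.16 against −0.07 in the EGFP livers. The median level of these markers in each array ran from 6.83 to 6.92 over the HPNWT arrays of day 1 and from 6.71 to 6.77 at day 2. Over the EGFP arrays it ran from 6.94 to 7.08 and from 6.70 to 7.13. In this median the HPNWT days did not overlap and the EGFP days did. Over the 20 markers the differences ran from −0.33 to 0.50. At an unadjusted p under 0.05 there were 0 higher and 1 lower, or 3 lower without HPNWT day 4 replicate 3. Csf1r, the receptor that macrophages need, differed by −0.26 (SE 0.10). The part of these macrophage markers in the fall of Irf5 was not tested. The median level of the 20 sinusoidal endothelial markers in each HPNWT array was 6.53 to 6.69 at day 1 and 6.48 to 6.66 at day 2. Of their differences 17 were below 0, with a median of −0.06 against 0.04 in the EGFP livers and 1 that did not overlap downward. Of 23 stellate cell and matrix markers 10 were above the control level, and 8 did not overlap upward and 2 downward, against 5.29% and 6.77% over all clusters. Their median difference was 0.04, against −0.03 in the EGFP livers. Their median level in each HPNWT array ran from 5.92 to 6.05 at day 1 and from 6.02 to 6.07 at day 2. None of the 16 T and NK cell markers and 1 of the 14 neutrophil markers were above the control level.

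Whether the change over the days differed between the labels was tested directly as a difference of changes. Limma called 0 of 40161 clusters (0%), with 2196 at an unadjusted p under 0.05, so no gene is shown here to change in the HPNWT livers alone. Mcm6 had the smallest p, with a difference of changes of 1.32 (SE 0.18, limma adjusted p = 0.086), followed by Capn3 at 0.63 (SE 0.10, limma adjusted p = 0.23). Irf5, Pole and Akr1c18 gave −0.44, 0.48 and 1.60, each with a limma adjusted p of 0.75. Fubp1, a DNA-binding regulator of Myc, gave −0.72 (SE 0.14), with HPNWT arrays that overlapped between the days and EGFP arrays all higher at day 2. Without replicate 2 of HPNWT day 2 Mcm6 alone passed, and without HPNWT day 4 replicate 3 it passed with Actb and Klk1b5.

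The authors' deposited tables give a mean of each label and day on a log2 scale whose settings are not stated, so they were used for direction alone. The authors' deposited HPNWT means of day 2 and day 1 differed in the same direction as the values above for 7 of the 7 called clusters and for 94 of the 95 clusters chosen for naming. These means are of the same labels and days, and most clusters were chosen by their differences in these data. The shared direction is therefore no independent check. In the authors' deposited table the Mcm6 means were 4.39 and 6.24 and the Hpn means 10.65 and 10.61 at day 1 and day 2.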

How the data were processed

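Liver RNA of 18 mice was hybridised to 1 array each, and the deposited log2 values were computed by the authors with the Transcriptome Analysis Console by robust multi-array averaging (RMA), per the labels, in a version that they do not give. RMA sets the arrays to a common distribution, so the values are relative, and probe numbers limit the precision of dim clusters. The authors' deposited tables of comparisons supplied the symbols and log2 means. Symbols stood for 40161 of 65956 clusters, of which 3590 with several symbols are not named, and a gene is read from its brightest cluster. The fit in limma 3.58.1 (R 4.3.3, statmod 1.5.0) had 6 group means over 18 arrays without covariates or a filter, and p-values were adjusted over all 40161 clusters. Non-overlap means that all 3 arrays of a day lie above or below all 3 of the other day, and an exact permutation test of 3 against 3 cannot go below 0.1. The members, the 52 gene lists (1384 of 1472 genes matched) and the tests were chosen with earlier results of these data known. Named were Hpn, the called genes, the members of set lists with the smallest p, and the 8 leading genes of the difference of changes by p; other list members were picked for naming with their values in view. The fit was tested on simulated data. Alternatives were median centring, repeated quantile normalization, a filter at the control level, fewer arrays, a replicate block, a trended robust prior, array weights, the negative-control median as covariate and leaving out each array. Figures used matplotlib 3.10.9 in Python 3.11.15. Values of some single genes are not reported here.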

Additional observations from a re-analysis of the deposited data

Results flagged for a closer look

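For 7 of the 95 clusters chosen for naming, the 3 day 2 arrays lay wholly on one side of day 1 in the HPNWT livers. In the EGFP livers they lay wholly on the opposite side. The share of such clusters among all 40161 was not counted. In 1 direction alone 5.29% and 6.77% did not overlap in the HPNWT livers, and 6.24% and 9.91% in the EGFP livers. Trav6-5 and Klk1b24 were named for their small p in the difference of changes, so the count of 7 depends in part on how genes were chosen. The difference of the changes, HPNWT minus EGFP, was 0.37 for Nek2, 0.45 for the T cell receptor segment Trav6-5, 0.51 for Klk1b24, 0.31 for Lig1, 0.23 for Cdk1, −0.38 for Polr1e and −1.45 for Egr1. None of these differences passed in limma, where the adjusted p lay between 0.75 and 0.85. All but Egr1 were below the control level on both days. Klk1b24 belongs to a cluster of near-identical kallikrein genes, and how the probes divide them was not tested. Egr1 read 9.64 ± 0.14 and 8.86 ± 0.24 in the HPNWT livers and 6.91 ± 0.23 and 7.58 ± 0.20 in the EGFP livers at day 1 and day 2 (SD, n = 3).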

How the results depend on the processing

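The counts of clusters that rose and fell in the livers labelled HPNWT, 3 and 4, were small and moved with the processing, and the causes were not tested. Median centring of each array gave 1 and 0, a repeated quantile normalization 7 and 5, a filter at the control level 1 and 5 among 9049 clusters, the 12 arrays of both days 5 and 14, and array quality weights 81 and 279. With these weights 986 clusters were called in the EGFP livers and 387 for the difference of changes, for which the 12 arrays gave 2. Leaving out 1 array of day 1 or day 2 gave 1 to 4 rises, 0 to 46 falls, 0 in the EGFP livers and 0 to 1 for the difference of changes, and leaving out HPNWT day 4 replicate 3, chosen after seeing the data, gave 15, 45 and 3. The replicate block gave 2 rises and 3 falls, 4 of them among the 7 called. Replicate numbers did not pair the samples: the deviations of equal numbers correlated at 0.03 to 0.09 in the HPNWT livers and at −0.18 to −0.06 in the EGFP livers, and none was over 0.1. The HPNWT difference of Hpn changed sign to 0.032 with array weights, and without single arrays ran from −0.148 to 0.037, the last without HPNWT day 1 replicate 1. That of Angptl8 ran from −0.707 to 0.088 without single arrays, above 0 without replicate 1 of HPNWT day 1 or of HPNWT day 2. Of the 7 called clusters Mcm6 passed in 20 of 21 alternatives and Akr1c18 in 9 of 22, with limma adjusted p up to 0.35 for the latter. Dim clusters limit the rest: most S phase and mitotic genes were under the control level.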
